A study of Marchantia polymorpha with 9 samples.

Results

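The comparison set the 3 libraries of the Mpb-gata1-2 mutant of the liverwort Marchantia polymorpha against the 3 libraries of its wild type BoGa, out of 9 RNA sequencing libraries in all. It covered the genes that the deposited tables place on chromosomes 1 to 8, which are 20090 of 20574 genes, and 14530 of them had enough reads to be tested. The 207 genes of the V chromosome were left out because the groups differ in V content, and 277 unplaced genes were left out too. The groups were Mpb-gata1-2, a mutant of MpB-GATA1, then Mpb-gata1-1, another mutant of the same gene that is used below only beside it, and BoGa. All were untreated, entire thallus plants aged 3 weeks, grown on diluted Gamborg's B5 medium at 22 °C with 16 h light and 8 h dark. Each library pooled 3 plants, so the spread between libraries is a spread between such pools. The labels name no further allele or agent, do not describe the mutation in either mutant, and give no sign of more than 1 line per mutant, so allele and line cannot be told apart.

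B-class GATA factors are zinc finger transcription factors. In Arabidopsis they are known to promote chlorophyll synthesis and chloroplast development and to act downstream of light, cytokinin and nitrate. The thallus is the flat haploid body of the liverwort. It carries gemma cups with vegetative propagules, rhizoids and oil body cells, and the sex of the plant goes with a U or a V chromosome.

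Depth was 26340534, 32922351 and 39378213 gene reads in the Mpb-gata1-2 libraries, against 33982770, 32662103 and 37333830 in the BoGa libraries, and 24823337 to 44133919 in Mpb-gata1-1. Between 98.17 and 98.32% of the reads were unique to 1 gene. Libraries of the same group correlated at 0.989 to 0.995 across genes (Pearson's r, log2 CPM). CPM here is the read count of a gene relative to the TMM-scaled library size. The level of 22 V-chromosome genes, relative to the mean of Mpb-gata1-2, was 1.033, 0.9462 and 1.014 in Mpb-gata1-2, 0.0172 to 0.0253 in Mpb-gata1-1, and 0.368, 0.5327 and 0.6816 in BoGa replicates 1, 2 and 3. The BoGa libraries therefore lay between the mutants and differed among themselves, and V content and genotype cannot be told apart by group. For this reason the count of called members of each gene list is also given from a fit with the V level as a covariate. The V level varied little within each mutant, so the slope in that fit rests mostly on the 3 BoGa libraries. A call kept or lost in it shows how far the call depends on that term and does not separate V content from genotype. These are whole plants, so fewer cells of a type and less RNA per cell cannot be told apart.

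In Mpb-gata1-2, 3153 genes were higher than in BoGa and 3600 were lower, by edgeR's quasi-likelihood test at a Benjamini-Hochberg adjusted p under 0.05 over all tested genes. These are 21.7% and 24.8% of the 14530 tested genes, 46.5% together, and most of the differences were small: 4207 of the 6753 called genes differed by less than 1.5-fold. A difference of at least 2-fold was found for 513 higher genes (3.53%) and 747 lower genes (5.14%), numbers that were 313 and 507 under the V covariate, and one of at least 8-fold for 178 and 114. All 3 Mpb-gata1-2 libraries lay above all 3 BoGa libraries for 3886 genes (26.7%) and below them for 4184 genes (28.8%). With the V level as a covariate 1503 genes were called, 625 higher and 878 lower, and 1272 of them were among the 6753. Of the called genes 46.7% were higher, against 62.2% with limma on the deposited TPM values, so the balance of small rises and falls depends on the scaling. The plot of change against level shows the late embryogenesis abundant (LEA) genes among the largest rises and class III peroxidase genes among the largest falls.

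**Figure D1:**
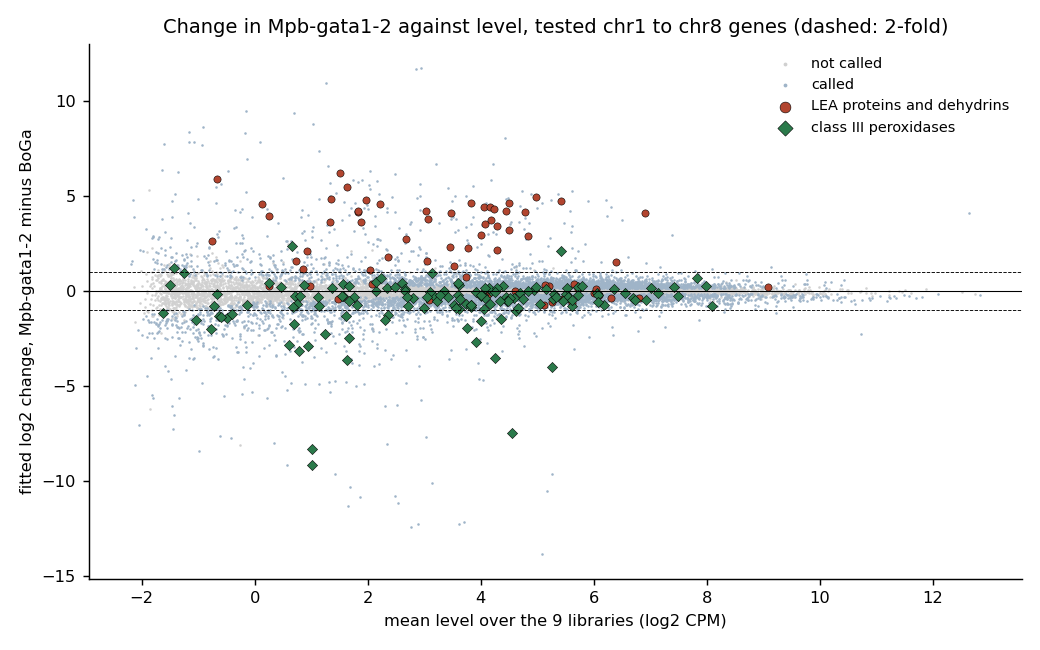
Fitted log2 change (Mpb-gata1-2 minus BoGa, vertical) against mean level over the 9 libraries (log2 CPM, horizontal) for the 14530 tested genes of chromosomes 1 to 8, with called genes in blue-grey, LEA genes as red circles and class III peroxidase genes as green diamonds. Of 67 tested LEA genes 44 lie above the dashed 2-fold line as called rises, and of 138 peroxidase genes 26 lie below it as called falls.

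**Figure D2:**
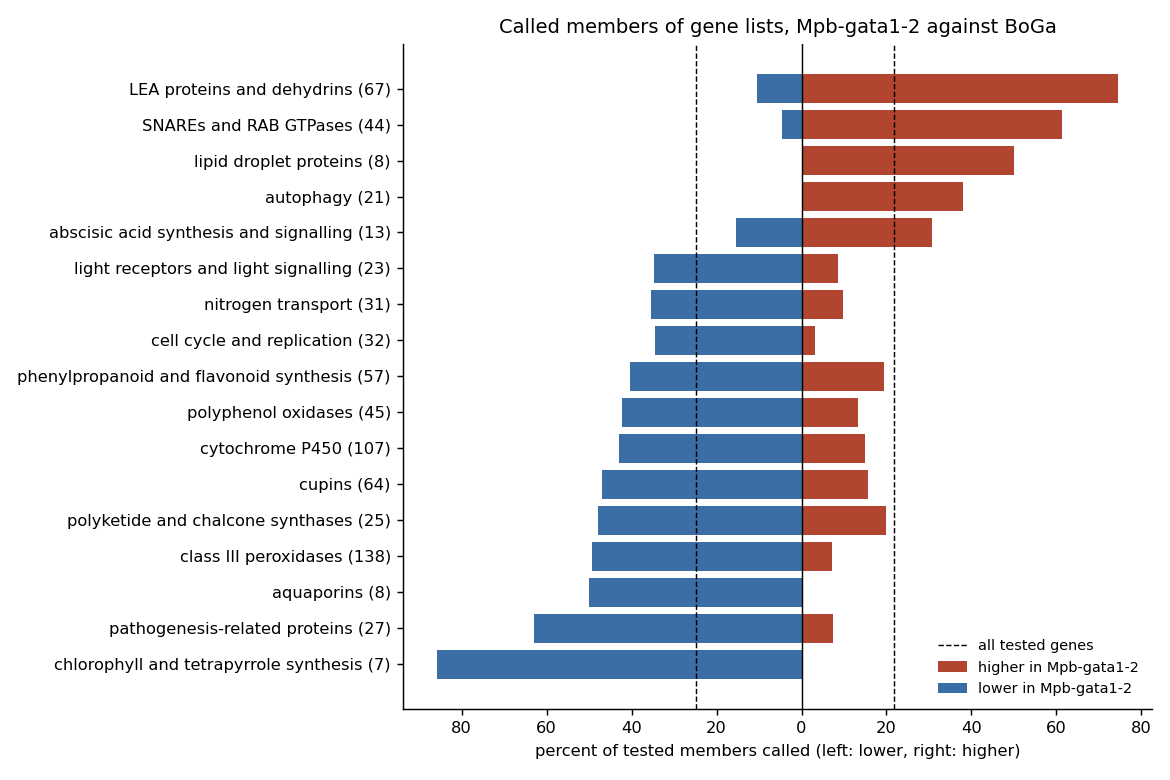
Percent of the tested members of 17 gene lists that were called higher (red, to the right) or lower (blue, to the left) in Mpb-gata1-2 than in BoGa, with the number tested in brackets and dashed lines at 21.7% and 24.8% for all tested genes. LEA genes (74.6% higher) and SNARE and RAB genes (61.4% higher) reach farthest to the right, and tetrapyrrole genes (85.7% lower) and pathogenesis-related genes (63% lower) farthest to the left.

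The GATA genes themselves split. The labels name the mutated gene MpB-GATA1, a name that the gene table does not use, so all 4 GATA genes on chromosomes 1 to 8 are given. Any of these levels may therefore be that of the mutated gene's own transcript. MpGATA4 (Mp7g03490, chromosome 7, 4342060 to 4345887) had 279, 284 and 287 CPM in Mpb-gata1-2, against 147, 152 and 154 CPM in BoGa. The groups lay far apart, and the log2 change was 0.91 ± 0.05 (SE, adjusted p = 3.60e-07). MpGATA5 (Mp5g09130, chromosome 5, 9884001 to 9892103) had 37.8, 36.1 and 37.9 CPM in Mpb-gata1-2, against 45.2, 44.0 and 56.1 CPM in BoGa. It fell by 0.38 ± 0.09 on the log2 scale (adjusted p = 0.00524), and the groups did not overlap; this gene overlaps another gene in the tables, so part of its reads may belong there. MpGATA1 (Mp1g05310) had 56.3, 48.7 and 54.5 CPM in Mpb-gata1-2, against 47.3, 48.4 and 51.2 CPM in BoGa, with overlapping groups and a log2 difference of 0.12 ± 0.07 (adjusted p = 0.190). MpGATA2 (Mp1g03950), which also overlaps another gene, had 13.9, 16.8 and 16.3 CPM in Mpb-gata1-2, against 17.5, 18.2 and 26.8 CPM in BoGa. Its log2 difference of -0.41 ± 0.16 missed the threshold (adjusted p = 0.0529) and passed it without BoGa replicate 1 (-0.52, adjusted p = 0.0209) or BoGa replicate 2 (-0.50, adjusted p = 0.0383). With the V level as a covariate 1 of the 4 genes was called higher and 2 lower. The calls of MpGATA4 and MpGATA5 were kept in it, and MpGATA2 was not called higher but lower (-1.16, adjusted p = 0.0370). MpGATA2 was also called lower with DESeq2 (adjusted p = 0.0316), upper-quartile scaling (0.0397) and a stricter filter on low counts (0.0468). No other alternative changed its call.

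Genes listed under chlorophyll and tetrapyrrole synthesis were mostly lower in Mpb-gata1-2, all by less than 2-fold. Of 7 tested genes of this list 6 were lower (85.7%, against 24.8% of all genes) and none was higher, also at an unadjusted edgeR p under 0.05 and with DESeq2 or limma, with a median log2 change of -0.437 beside -0.0198 over all tested genes. Their summed level was 1046, 1061 and 1058 CPM in the Mpb-gata1-2 libraries, against 1445, 1447 and 1367 CPM in the BoGa libraries. Mg-chelatase inserts magnesium into protoporphyrin and is the entry to the chlorophyll branch, and its 3 subunits all fell. MpCHLI1/2-like, the ATPase subunit, had 299, 298 and 288 CPM in Mpb-gata1-2, against 393, 410 and 421 CPM in BoGa (log2 change -0.47 ± 0.05, adjusted p = 5.92e-05). MpCHLD had 106, 111 and 110 CPM in Mpb-gata1-2, against 132, 142 and 155 CPM in BoGa (-0.39 ± 0.06, adjusted p = 0.000538). MpGUN5, the large catalytic subunit by its Arabidopsis namesake, had 243, 254 and 267 CPM in Mpb-gata1-2, against 371, 344 and 318 CPM in BoGa (-0.44 ± 0.07, adjusted p = 0.000627). No Mpb-gata1-2 library reached the lowest BoGa library for any of these subunits.

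The porphyrin-binding regulator of the chelatase, MpGUN4, had 79.5, 93.6 and 85.5 CPM in Mpb-gata1-2, against 127, 137 and 125 CPM in BoGa, and fell by 0.59 ± 0.09 on the log2 scale (adjusted p = 0.000340). On the heme side, the heme oxygenase gene MpHY1 had 134, 122 and 125 CPM in Mpb-gata1-2, against 196, 203 and 159 CPM in BoGa (-0.55 ± 0.09, adjusted p = 0.000554). Heme oxygenase opens the heme ring on the way to the phytochrome chromophore. The ferrochelatase gene MpFC2 had 176, 173 and 174 CPM in Mpb-gata1-2, against 215, 201 and 179 CPM in BoGa (-0.18 ± 0.07, adjusted p = 0.0393). Its call did not hold when 1 library was left out, with adjusted p of 0.0503 to 0.148 without BoGa 1, BoGa 2, Mpb-gata1-1 replicate 2 or 3, or any of the 3 Mpb-gata1-2 libraries. MpHY2, the gene for the step from biliverdin to the chromophore, had overlapping groups (9.11, 9.98 and 8.16 CPM in Mpb-gata1-2, against 11.3, 10.9 and 9.38 CPM in BoGa) and was not called (-0.21 ± 0.13, adjusted p = 0.193). Taking the V level as a covariate, 2 of the 7 genes were called lower and none higher, MpCHLI1/2-like at -0.60 (adjusted p = 0.0236) and MpCHLD at -0.69 (adjusted p = 0.0112), while MpGUN5, MpGUN4 and MpHY1 were not called and MpFC2 changed sign. In BoGa, MpGUN5, MpGUN4, MpHY1, MpHY2 and MpFC2 were lowest in replicate 3, which had the highest V level of the 3. MpCHLI1/2-like and MpCHLD were instead highest in that library. The part of V content in the falls of this list was not tested.

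**Figure D3:**
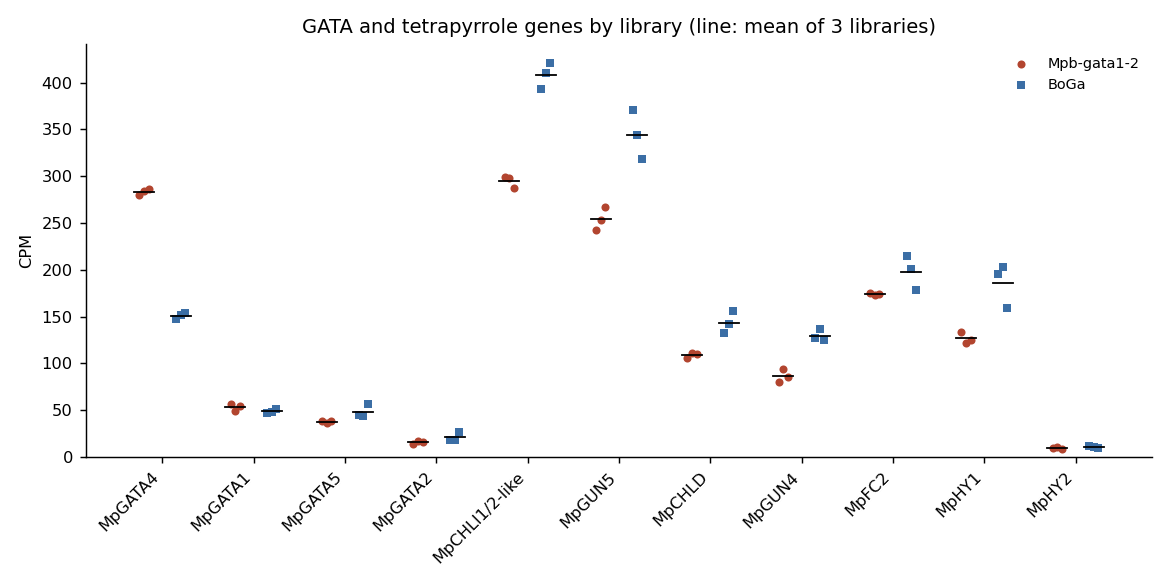
Level (CPM, linear axis from 0) of the 4 GATA genes and 7 tetrapyrrole genes in each of 3 Mpb-gata1-2 libraries (red circles, left) and 3 BoGa libraries (blue squares, right), with a line at each mean. MpGATA4 stands at 279 to 287 CPM in Mpb-gata1-2 against 147 to 154 CPM in BoGa, while the Mg-chelatase genes and MpGUN4 stand below BoGa in every Mpb-gata1-2 library.

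The called differences among light signalling genes were all below 2-fold. Of 23 tested genes 8 were lower (34.8%, against 24.8% of all genes) and 2 higher (8.7%, against 21.7%), with a median log2 change of -0.103. The count of lower genes was 5 without BoGa 1, BoGa 2, Mpb-gata1-2 replicate 2 or 3, and 3 with limma on TPM, while the count of higher genes was 1 without Mpb-gata1-2 replicate 1. With the V level as a covariate edgeR called none, and 2 were higher and 0 lower at an unadjusted p under 0.05. The photoreceptor genes MpPHY (182, 161 and 168 CPM in Mpb-gata1-2, against 198, 170 and 163 CPM in BoGa) and MpCRY (202, 190 and 203 CPM in Mpb-gata1-2, against 196, 182 and 189 CPM in BoGa) had overlapping groups and were not called. Among genes of light signal repression, MpRUP had 12.5, 13.4 and 13.0 CPM in Mpb-gata1-2, against 18.2, 17.3 and 16.3 CPM in BoGa (-0.41 ± 0.08, adjusted p = 0.00258). MpCOP10 had 137, 132 and 128 CPM in Mpb-gata1-2, against 171, 169 and 149 CPM in BoGa (-0.30 ± 0.07, adjusted p = 0.00465). MpDET1, whose Arabidopsis namesake represses light responses in darkness, had 89.0, 83.7 and 86.1 CPM in Mpb-gata1-2, against 163, 135 and 97.8 CPM in BoGa (-0.61 ± 0.15, adjusted p = 0.00741). Its Mpb-gata1-2 libraries were tight and its BoGa libraries spread widely, lowest in the replicate with the highest V level. MpEID1 (-0.29 ± 0.07, adjusted p = 0.00780) and MpBBX2 (-0.67 ± 0.18, adjusted p = 0.0116) were lower and MpBBX6 was higher (0.67 ± 0.17, adjusted p = 0.00913). The other 4 calls were lost when a single library was left out. They were the blue light receptor gene MpPHOT (-0.33, adjusted p = 0.0293, and up to 0.101 without BoGa 1, BoGa 2, Mpb-gata1-2 replicate 2 or 3), the UV-B receptor gene MpUVR8 (-0.24, adjusted p = 0.0396, and up to 0.135 without BoGa 1, BoGa 2, or replicate 2 or 3 of either mutant), MpCOP1 (-0.28, adjusted p = 0.0416, and up to 0.142 without any 1 library other than BoGa 3) and MpFHY1 (0.29, 47.2% unique reads, adjusted p = 0.0137, and 0.0596 without Mpb-gata1-2 replicate 1).

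LEA genes had the largest share of called rises among the gene lists examined here. LEA proteins and dehydrins are small hydrophilic proteins known from seeds and from drying plant tissue, where they protect other proteins and membranes. Of 72 genes listed 67 were tested, and 50 of these were higher (74.6%, against 21.7% of all genes), 7 were lower and 10 were not called. The median log2 change was 2.31, and 44 rose at least 2-fold. Their summed level was 2424, 2652 and 2424 CPM in Mpb-gata1-2, against 1466, 1521 and 1466 CPM in BoGa. In the fit with the V covariate 38 were called higher and 3 lower, and without any 1 library 48 to 50 were higher.

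The LEA gene with the largest gain in CPM, MpLEAL1 (Mp4g09300, chromosome 4, 10402146 to 10403008), had 222, 266 and 206 CPM in Mpb-gata1-2, against 14, 13.0 and 13.7 CPM in BoGa. Its log2 change was 4.09 ± 0.18 (adjusted p = 1.91e-07), and the Mpb-gata1-1 libraries lay between the groups at 146, 96.6 and 97.3 CPM. MpLEA1 had 84.8, 96.3 and 77.5 CPM in Mpb-gata1-2, against 3.47, 2.36 and 3.69 CPM in BoGa (4.75 ± 0.24, adjusted p = 4.18e-07). MpLEA-like9 had 54.5, 66.3 and 54.1 CPM in Mpb-gata1-2, against 2.75, 1.48 and 1.53 CPM in BoGa (4.92 ± 0.24, adjusted p = 3.60e-07). For each of these genes the lowest Mpb-gata1-2 library was many times the highest BoGa library. MpLEA-like7 had 48.6, 50.6 and 44.2 CPM in Mpb-gata1-2, against 2.33, 1.48 and 2.05 CPM in BoGa (4.61 ± 0.22, adjusted p = 3.18e-07). MpLEAL6 had 26.0, 30.6 and 28.7 CPM in Mpb-gata1-2, against 1.40, 1.29 and 1.23 CPM in BoGa (4.44 ± 0.16, adjusted p = 3.87e-08), and MpLEA-like2 had 30.6, 33.7 and 32.9 CPM in Mpb-gata1-2, against 3.59, 2.83 and 2.71 CPM in BoGa (3.41 ± 0.13, adjusted p = 3.87e-08). All 6 calls were kept with the V level as a covariate.

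Several LEA genes that rose lie side by side on chromosome 6. From 3396301 to 3411402, 6 consecutive tested genes (MpLEAL3 and MpLEA-like34 to MpLEA-like38) were all at least 2-fold higher, with a median log2 change of 4.5. From 3455215 to 3517527, 7 consecutive tested genes were higher, with a median of 4.55, and 6 of them are LEA-like genes. In the stretch that begins at 3396301, MpLEA-like36 had 25.9, 29.1 and 23.5 CPM in Mpb-gata1-2, against 1.08, 0.942 and 1.18 CPM in BoGa (4.61 ± 0.21, adjusted p = 2.09e-07). MpLEA-like34 (84.6% unique reads) had 6.34, 6.60 and 5.97 CPM in Mpb-gata1-2, against 0.269, 0.157 and 0.246 CPM in BoGa (4.78 ± 0.34, adjusted p = 3.08e-06). In the other stretch, MpLEA-like42 had 4.61, 6.88 and 4.35 CPM in Mpb-gata1-2, against 0, 0.0314 and 0.164 CPM in BoGa. Its log2 change of 6.19 ± 0.53 (adjusted p = 1.29e-05) was the largest rise among called genes with a symbol whose mean log2 CPM was at least 1, and it was 8.11 without BoGa replicate 3. MpLEA-like43 (5.49 ± 0.34, adjusted p = 1.17e-06), MpLEA-like44 (4.81 ± 0.41, adjusted p = 1.07e-05) and MpLEA-like45 (84.2% unique reads, 4.55 ± 0.34, adjusted p = 4.99e-06) stand next to it. MpLEAL3 (83.4% unique reads) rose by 4.20 ± 0.27 (adjusted p = 2.08e-06), MpLEA-like38 (84.3% unique reads) by 4.58 ± 0.50 (adjusted p = 5.07e-05, and 5.30 without BoGa replicate 3) and MpLEA-like39 by 3.61 ± 0.36 (adjusted p = 2.70e-05). The calls of MpLEA-like38, MpLEA-like39 and MpLEA-like42 were not kept with the V level as a covariate, and those of the other genes named here were. Close copies share reads, so the level of a single gene in these stretches is less certain than the stretch as a whole.

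Of 8 tested lipid droplet genes 4 were higher (50%, against 21.7% of all genes), with a median of 0.236. MpLDAL1, MpOLEOSIN, MpPP2C_A3 and MpABA1 below were chosen after their values were seen. The caleosin gene MpCALEOSIN, which encodes a calcium-binding lipid droplet protein, had 5.96, 7.15 and 6.0 CPM in Mpb-gata1-2, against 0.329, 0.126 and 0.301 CPM in BoGa (4.63 ± 0.33, adjusted p = 3.11e-06). The other members that rose did so by less. None was lower, also at an unadjusted edgeR p under 0.05 and with DESeq2, though 1 was without BoGa 3. MpSEIPIN, for a protein of droplet formation, rose by 0.55 ± 0.09 (adjusted p = 0.000550), MpLDAL2 by 0.52 ± 0.12 (adjusted p = 0.00518) and MpLDAL1 by 0.31 ± 0.10 (adjusted p = 0.0249). The MpLDAL1 call was lost without BoGa 2, BoGa 3, Mpb-gata1-2 replicate 1 or 3 (adjusted p = 0.0542 to 0.0895). MpOLEOSIN, for the main droplet coat protein of seeds, had 9.52, 10.3 and 7.83 CPM in Mpb-gata1-2, against 9.26, 8.76 and 6.62 CPM in BoGa and was not called (0.16 ± 0.14, adjusted p = 0.356). Of the 8, 3 were called higher with the V level as a covariate, MpCALEOSIN, MpSEIPIN and MpLDAL1, and none lower.

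Among 31 genes of peroxide and superoxide removal 8 were higher (25.8%) and 9 lower (29%), shares near those of all genes, and 2 and 1 under the V covariate. The catalase gene MpCAT1 had 9.71, 8.20 and 9.66 CPM in Mpb-gata1-2, against 0.329, 0.283 and 0.191 CPM in BoGa (5.09 ± 0.30, adjusted p = 8.47e-07). The other catalase gene, MpCAT2, moved the other way, with 2552, 2549 and 2575 CPM in Mpb-gata1-2, against 3142, 3150 and 2832 CPM in BoGa (-0.25 ± 0.06, adjusted p = 0.00578). Catalase breaks down hydrogen peroxide in peroxisomes. MpDHAR4, a dehydroascorbate reductase gene, had 23.4, 23.6 and 18.7 CPM in Mpb-gata1-2, against 2.48, 2.48 and 2.16 CPM in BoGa (3.21 ± 0.25, adjusted p = 7.05e-06). The calls of MpCAT1 and MpDHAR4 were kept with the V level as a covariate and that of MpCAT2 was not.

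**Figure D4:**
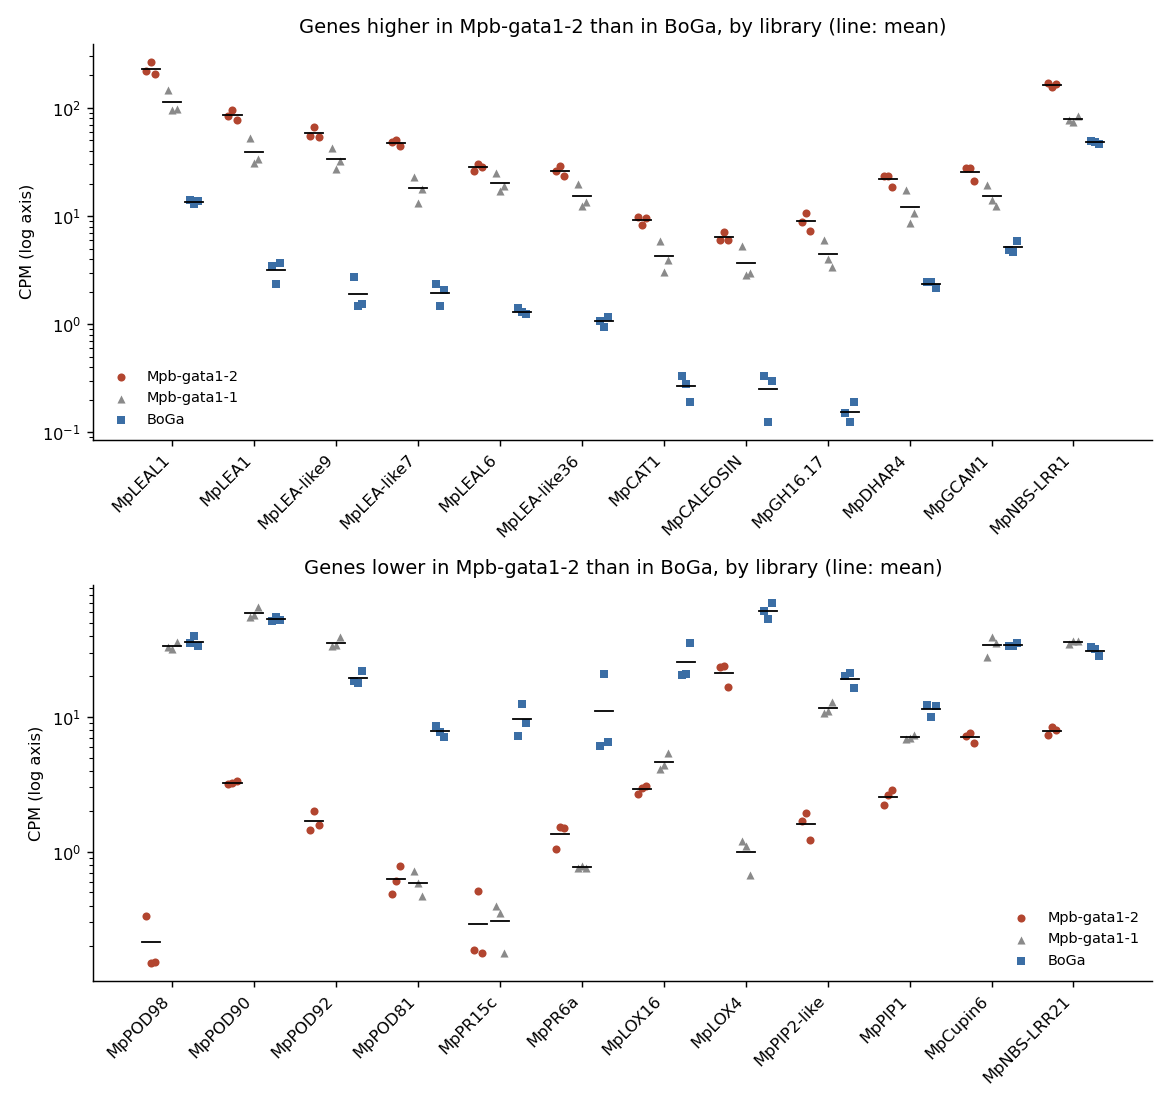
Level (CPM, log axis) of 12 genes higher (upper panel) and 12 genes lower (lower panel) in Mpb-gata1-2 than in BoGa, in each library of Mpb-gata1-2 (red circles), Mpb-gata1-1 (grey triangles) and BoGa (blue squares), with a line at each mean. MpLEAL1 stands at 206 to 266 CPM in Mpb-gata1-2 against 13.0 to 14 CPM in BoGa, and MpPOD98 at 0.151 to 0.337 CPM in Mpb-gata1-2 against 32.0 to 36.0 CPM in Mpb-gata1-1 and 33.4 to 39.6 CPM in BoGa.

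Abscisic acid is a hormone known to induce LEA genes in seeds and in liverworts. Of 13 tested genes of its synthesis and signalling 4 were higher (30.8%, against 21.7% of all genes) and 2 lower (15.4%, against 24.8%). The count of lower genes was 0 without BoGa 2 and 1 without any of the 3 Mpb-gata1-2 libraries. MpSNRK2A, a kinase gene of the pathway, had 265, 272 and 258 CPM in Mpb-gata1-2, against 209, 211 and 217 CPM in BoGa (0.32 ± 0.05, adjusted p = 0.000413). MpABI5A, for a transcription factor of the bZIP class, had 42.0, 39.1 and 42.4 CPM in Mpb-gata1-2, against 32.3, 35.8 and 35.1 CPM in BoGa (0.26 ± 0.06, adjusted p = 0.00685). MpABI3A, for a factor known from seed maturation in Arabidopsis, was higher by 0.26 ± 0.08 (adjusted p = 0.0262), a call that was lost without BoGa 2, BoGa 3, Mpb-gata1-2 replicate 1 or 3 (adjusted p = 0.0693 to 0.104). MpPP2C_A3, by its symbol a phosphatase of the family that holds the pathway down, had 44 reads over the Mpb-gata1-2 libraries and 3 over the BoGa libraries, a ratio of 15.1 (95% interval 4.83 to 75.9, counting error only; adjusted p = 0.00184). Its fitted log2 change of 3.76 was 4.64 without BoGa 2 and 3.17 without BoGa 3. The receptor gene MpPYL1 was lower by 0.33 ± 0.11 (adjusted p = 0.0270), which did not hold without BoGa 2, Mpb-gata1-2 replicate 1 or 3 (adjusted p = 0.0684 to 0.0929). MpABA1, whose Arabidopsis namesake encodes zeaxanthin epoxidase, had 322, 286 and 301 CPM in Mpb-gata1-2, against 506, 463 and 316 CPM in BoGa (-0.50 ± 0.14, adjusted p = 0.0145, and 0.0545 without BoGa 2 or 0.0511 without Mpb-gata1-2 replicate 2). The fit with the V covariate called 2 genes higher and none lower (0 at an unadjusted p under 0.05). Of the genes named here MpABI3A was called in it, MpSNRK2A (adjusted p = 0.222), MpABI5A (0.04, adjusted p = 0.905), MpPP2C_A3 (adjusted p = 0.170) and MpPYL1 (adjusted p = 0.444) were not, and MpABA1 changed sign.

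Many genes of membrane traffic and some of autophagy rose, most of them by less than 1.5-fold. Of 44 tested SNARE and RAB genes 27 were higher (61.4%, against 21.7% of all genes) and 2 lower, with a median log2 change of 0.201. The higher count ran from 22 with upper-quartile scaling to 30 with limma on TPM, and the lower count was 1 without BoGa 2, Mpb-gata1-2 replicate 2 or 3. SNARE proteins fuse vesicles with their target membrane and RAB GTPases direct them there. Their summed level was 4355, 4278 and 4338 CPM in Mpb-gata1-2, against 3852, 3915 and 3617 CPM in BoGa. MpRAB11C, which overlaps another gene, had 88.4, 89.9 and 92.9 CPM in Mpb-gata1-2, against 62.4, 67.2 and 62.1 CPM in BoGa (0.50 ± 0.05, adjusted p = 3.05e-05). MpUSE1B had 3.71, 3.14 and 3.46 CPM in Mpb-gata1-2, against 1.28, 1.38 and 1.31 CPM in BoGa (1.37 ± 0.15, adjusted p = 4.80e-05). MpGOS12 rose by 0.38 ± 0.05 (adjusted p = 8.54e-05) and MpSYP7A by 0.35 ± 0.05 (adjusted p = 0.000273). Of the 44, 4 were called higher and 1 lower with the V level as a covariate. MpRAB11C was among the 4, and MpUSE1B, MpGOS12 and MpSYP7A were not called.

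Autophagy carries cytoplasm to the vacuole for breakdown. Of 21 tested ATG genes 8 were higher (38.1%, against 21.7% of all genes), with a median of 0.132. None was lower, also at an unadjusted edgeR p under 0.05 and with DESeq2, though 1 was without BoGa 3. MpATG4, for the protease that processes ATG8, had 126, 117 and 120 CPM in Mpb-gata1-2, against 93.6, 89.7 and 89.8 CPM in BoGa (0.41 ± 0.05, adjusted p = 0.000105). MpATG16 had 51.6, 48.5 and 48.0 CPM in Mpb-gata1-2, against 38.2, 38.1 and 34.6 CPM in BoGa (0.42 ± 0.06, adjusted p = 0.000273). In neither gene did the groups overlap. MpATG18b (0.33 ± 0.06, adjusted p = 0.00101) and MpATG12 (0.35 ± 0.07, adjusted p = 0.00204) rose by less than 1.5-fold too. MpATG16 and MpATG18b were the 2 ATG genes called higher with the V level as a covariate, and none was called lower.

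The largest set of falls was in class III peroxidases, secreted heme enzymes that act on cell wall phenolics with hydrogen peroxide. Of 164 genes listed 138 were tested, and 68 of these were lower (49.3%, against 24.8% of all genes), 10 were higher and 60 were not called, with a median log2 change of -0.322. At least 2-fold falls numbered 26. Without any 1 library 56 to 70 were lower, and 33 lower and 3 higher were called with the V covariate. MpPOD98 (Mp5g13650, chromosome 5, 14913812 to 14915961) was almost silent, with 0.337, 0.151 and 0.153 CPM in Mpb-gata1-2, against 35.1, 39.6 and 33.4 CPM in BoGa (-7.45 ± 0.17, adjusted p = 1.04e-09). MpPOD90 (Mp5g10730, chromosome 5, 11928823 to 11937397) had 3.19, 3.26 and 3.33 CPM in Mpb-gata1-2, against 51.8, 55.0 and 52.0 CPM in BoGa (-4.02 ± 0.08, adjusted p = 8.40e-10). MpPOD92 (79.2% unique reads) had 1.46, 2.02 and 1.58 CPM in Mpb-gata1-2, against 18.3, 17.7 and 21.8 CPM in BoGa (-3.51 ± 0.14, adjusted p = 5.19e-08). In all these genes the highest Mpb-gata1-2 library was far below the lowest BoGa library. MpPOD81 had 0.487, 0.603 and 0.788 CPM in Mpb-gata1-2, against 8.63, 7.69 and 7.14 CPM in BoGa (-3.61 ± 0.20, adjusted p = 4.44e-07). MpPOD153 had no read in Mpb-gata1-2 and 212 reads over the BoGa libraries, at least 68.79-fold lower taking 3 reads over the group as the floor. MpPOD160 had 1 read in Mpb-gata1-2 and 449 over the BoGa libraries, which is 437-fold lower (95% interval 78 to 17300, counting error only). Its fitted log2 change of -8.33 became -10.20 without Mpb-gata1-2 replicate 3, the library with the read. A member that moved the other way was MpPOD156, with 274, 339 and 350 CPM in Mpb-gata1-2, against 165, 190 and 250 CPM in BoGa (0.67 ± 0.14, adjusted p = 0.00349). It was not called with the V level as a covariate, whereas the falls named here were. Another higher member, MpPOD162 (0.94, adjusted p = 0.00218), kept its call in that fit (1.69, adjusted p = 0.0435).

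Polyphenol oxidases, copper enzymes that oxidise phenolics, were lower for 19 of 45 tested genes (42.2%, against 24.8% of all genes). They were higher for 6 (13.3%, against 21.7%), with a median of -0.418. With the V level as a covariate 16 were called lower and 1 higher. Their summed level did not separate the groups, at 1185, 1339 and 1330 CPM in Mpb-gata1-2, against 991.3, 1214 and 1511 CPM in BoGa. MpPPO4 had 18.0, 18.6 and 21.7 CPM in Mpb-gata1-2, against 39.2, 48.0 and 38.8 CPM in BoGa (-1.11 ± 0.10, adjusted p = 1.32e-05). MpPPO14 (80.0% unique reads) had 16.3, 17.5 and 18.1 CPM in Mpb-gata1-2, against 30.8, 40.4 and 42.6 CPM in BoGa (-1.13 ± 0.11, adjusted p = 2.82e-05). MpPPO23 rose instead, with 26.4, 31.8 and 25.2 CPM in Mpb-gata1-2, against 14.2, 12.4 and 13.9 CPM in BoGa (1.04 ± 0.10, adjusted p = 2.05e-05). MpPPO47 was lower, with 1.84, 1.57 and 2.06 CPM in Mpb-gata1-2, against 4.27, 6.09 and 5.55 CPM in BoGa (-1.54 ± 0.16, adjusted p = 3.48e-05).

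Pathogenesis-related (PR) proteins are secreted defence proteins. Of 49 genes listed 27 were tested. Of these 17 were lower (63%, against 24.8% of all genes), 2 were higher (7.41%, against 21.7%) and 8 not called. The median was -1.4, and 14 fell at least 2-fold. The count of lower genes was 12 to 19 without any 1 library, 8 with a stricter filter on low counts and 3 under the V covariate, where none was higher (0 at an unadjusted p under 0.05). The count of higher genes was 1 without BoGa 1, BoGa 3 or any of the 3 Mpb-gata1-2 libraries. MpPR15c (86.5% unique reads) had 0.188, 0.513 and 0.178 CPM in Mpb-gata1-2, against 7.23, 12.6 and 9.02 CPM in BoGa (-5.02 ± 0.37, adjusted p = 4.43e-06, and -5.69 without Mpb-gata1-2 replicate 2). The protease inhibitor-type genes MpPR6b and MpPR6a were highest in BoGa replicate 2. Without that library their falls were smaller but still called, at adjusted p = 0.000340 for MpPR6b and 2.33e-05 for MpPR6a. MpPR6b had 0.675, 1.06 and 1.17 CPM in Mpb-gata1-2, against 5.14, 18.2 and 3.45 CPM in BoGa (-3.17 ± 0.60, adjusted p = 0.00182, and -2.13 without that library). MpPR6a had 1.05, 1.54 and 1.5 CPM in Mpb-gata1-2, against 6.12, 20.7 and 6.56 CPM in BoGa (-3.01 ± 0.47, adjusted p = 0.000576, and -2.21 without that library). MpPR1m had 31.2, 37.7 and 28.9 CPM in Mpb-gata1-2, against 77.7, 62.0 and 69.5 CPM in BoGa (-1.10 ± 0.10, adjusted p = 2.24e-05). MpPR5a, a thaumatin-type gene by its family, fell by 0.69 ± 0.08 (adjusted p = 8.26e-05). Of these only the MpPR15c call was kept with the V level as a covariate.

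Of 107 tested glycoside hydrolase genes 44 were lower (41.1%, against 24.8% of all genes) and 23 higher (21.5%, against 21.7%), and 13 and 6 under the V covariate. MpGH19.10 (41.5% unique reads) had 0.113, 0.151 and 0.508 CPM in Mpb-gata1-2, against 7.14, 8.29 and 7.52 CPM in BoGa (-4.77 ± 0.34, adjusted p = 3.09e-06, and -5.80 without Mpb-gata1-2 replicate 3). MpGH18.2 (40.6% unique reads) had 92.5, 89.5 and 97.4 CPM in Mpb-gata1-2, against 249, 283 and 283 CPM in BoGa (-1.54 ± 0.06, adjusted p = 8.50e-08). Plant chitinases belong to glycoside hydrolase families 18 and 19. MpGH16.17 went the other way, with 8.77, 10.7 and 7.24 CPM in Mpb-gata1-2, against 0.149, 0.126 and 0.191 CPM in BoGa (5.79 ± 0.32, adjusted p = 5.84e-07). MpGH3.5 had 5.70, 4.64 and 5.26 CPM in Mpb-gata1-2, against 0.149, 0.251 and 0.191 CPM in BoGa (4.70 ± 0.21, adjusted p = 1.30e-07). MpGH38.1 had 504, 490 and 498 CPM in Mpb-gata1-2, against 303, 316 and 381 CPM in BoGa (0.58 ± 0.08, adjusted p = 0.000339). MpGH35.2, which has 81.5% unique reads and overlaps another gene, had 323, 278 and 314 CPM in Mpb-gata1-2, against 132, 143 and 159 CPM in BoGa (1.07 ± 0.09, adjusted p = 6.73e-06). With the V level as a covariate MpGH38.1 (0.12, adjusted p = 0.665) and MpGH35.2 (0.62, adjusted p = 0.0522) were not called, and the other 4 genes named here were.

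Cupins are a family of barrel-shaped proteins that includes germin-like proteins of the cell wall. They were lower for 30 of 64 tested genes (46.9%, against 24.8% of all genes) and higher for 10 (15.6%, against 21.7%). The median was -0.656, and 17 lower and 1 higher were called with the V level as a covariate. MpCupin8 had no read in Mpb-gata1-2 and 674 over the BoGa libraries, at least 218.7-fold lower against the floor, though only 20.4% of its reads are unique. Its neighbour MpCupin6 (54.0% unique reads) had 7.27, 7.54 and 6.43 CPM in Mpb-gata1-2, against 33.8, 33.5 and 35.5 CPM in BoGa (-2.28 ± 0.12, adjusted p = 4.18e-07). MpCupin10 (72.2% unique reads) had 24.3, 20.7 and 25.6 CPM in Mpb-gata1-2, against 51.9, 47.8 and 56.7 CPM in BoGa (-1.15 ± 0.09, adjusted p = 4.13e-06). The groups stood well apart for each, and reads shared between copies make the share of each gene uncertain.

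Phenylpropanoid and polyketide genes were lower in part. Phenylalanine ammonia lyase (PAL) opens the phenylpropanoid pathway, and type III polyketide synthases, chalcone synthase among them, build flavonoids and related phenolics from its products. Of 57 tested genes of phenylpropanoid and flavonoid synthesis 23 (40.4%, against 24.8% of all genes) fell and 11 (19.3%, against 21.7%) rose (median -0.179). Of 25 polyketide synthase genes 12 were lower (48%) and 5 higher (20%), with a median of -0.397. The count of 5 was 3 without BoGa 2 or Mpb-gata1-2 replicate 3. The summed level of the polyketide synthases was 788, 784.5 and 795 CPM in Mpb-gata1-2, against 1118, 1147 and 918.2 CPM in BoGa. On chromosome 4, from 16242599 to 16296074, 8 consecutive tested genes were at least 2-fold lower, with a median log2 change of -1.24. MpPKS/CHS15 had 72.1, 70.5 and 66.1 CPM in Mpb-gata1-2, against 226, 197 and 122 CPM in BoGa (-1.38 ± 0.19, adjusted p = 0.000247). MpPKS/CHS14 had 39.7, 42.3 and 44.9 CPM in Mpb-gata1-2, against 114, 105 and 79.5 CPM in BoGa (-1.23 ± 0.13, adjusted p = 4.32e-05). The Mpb-gata1-2 libraries were alike, and BoGa replicate 3 lay nearest to them in both. MpPKS/CHS13 (-1.63 ± 0.28, adjusted p = 0.00110), MpPKS/CHS12 (-1.0 ± 0.15, adjusted p = 0.000344), MpPAL-like2 (62.5% unique reads, -1.24 ± 0.18, adjusted p = 0.000414) and MpPAL6 (38.7% unique reads, -1.17 ± 0.26, adjusted p = 0.00430) lie in the same stretch, and the PAL genes overlap other genes. None of these 6 was called with the V level as a covariate, and MpPAL6 changed sign. Over the lists, 2 phenylpropanoid genes were called lower and 3 higher with it, and 4 polyketide synthase genes lower and none higher (0 at an unadjusted p under 0.05). MpPKS/CHS23 on chromosome 7 (66.8% unique reads) kept its call, with 33.9, 37.5 and 36.1 CPM in Mpb-gata1-2, against 80.4, 82.1 and 69.7 CPM in BoGa (-1.11 ± 0.08, adjusted p = 2.92e-06). The methyltransferase gene MpOMT1 fell by 0.94 ± 0.08 (adjusted p = 7.42e-06), and MpDFR-like5 rose by 0.91 ± 0.09 (adjusted p = 2.17e-05).

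Cytochrome P450 genes were lower for 46 of 107 tested (43%, against 24.8% of all genes) and higher for 16 (15%, against 21.7%). The median was -0.283, and 15 lower and 3 higher were called with the V level as a covariate. MpCYP813-like2 had 8.59, 8.53 and 8.82 CPM in Mpb-gata1-2, against 28.3, 33.0 and 29.5 CPM in BoGa (-1.81 ± 0.09, adjusted p = 2.34e-07). MpCYP822-like6 had 2.51, 2.56 and 2.80 CPM in Mpb-gata1-2, against 12.4, 12.8 and 10.7 CPM in BoGa (-2.18 ± 0.11, adjusted p = 3.58e-07). MpCYP704-like5 was higher, with 155, 153 and 141 CPM in Mpb-gata1-2, against 68.6, 67.2 and 86.6 CPM in BoGa (1.01 ± 0.09, adjusted p = 1.21e-05). Other genes of secondary metabolism included the microbial-type terpene synthase-like MpMTPSL2, with 6.75, 4.86 and 4.63 CPM in Mpb-gata1-2, against 0.0598, 0.283 and 0.164 CPM in BoGa (4.98 ± 0.34, adjusted p = 2.09e-06). Of 30 dioxygenase genes of the DOXC class 11 were lower (36.7%, against 24.8% of all genes) and 7 higher (23.3%, against 21.7%), and 1 and 3 under the V covariate. MpDOXC10 had 45.2, 49.0 and 43.6 CPM in Mpb-gata1-2, against 16.4, 16.2 and 16.3 CPM in BoGa (1.5 ± 0.08, adjusted p = 3.15e-07). Of 33 tested UDP-glycosyltransferase genes 14 were lower (42.4%, against 24.8% of all genes) and 9 higher (27.3%, against 21.7%), and 3 and 4 with the covariate. MpUGT5 had 36.7, 43.9 and 30.2 CPM in Mpb-gata1-2, against 4.90, 4.52 and 4.51 CPM in BoGa (2.99 ± 0.18, adjusted p = 1.41e-06), and MpUGT7 had 24.0, 20.8 and 22.9 CPM in Mpb-gata1-2, against 63.7, 65.9 and 50.9 CPM in BoGa (-1.41 ± 0.10, adjusted p = 3.08e-06). The MpMTPSL2 and MpCYP704-like5 calls were not kept with the V level as a covariate.

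Transport genes that passed were mostly lower. Of 31 genes of nitrogen transport 11 were lower (35.5%, against 24.8% of all genes) and 3 higher (9.68%, against 21.7%), with a median of -0.209. Under other scalings 9 to 13 were lower and 2 to 5 higher. With the V level as a covariate 2 were called lower, MpNPF5 and MpAMT1.4, and none higher (2 at an unadjusted p under 0.05). MpNPF5 had 8.66, 9.50 and 8.21 CPM in Mpb-gata1-2, against 22.3, 21.3 and 20.4 CPM in BoGa (-1.28 ± 0.09, adjusted p = 1.82e-06). MpNPF9 had 11.9, 9.86 and 9.99 CPM in Mpb-gata1-2, against 41.6, 44.0 and 28.3 CPM in BoGa (-1.85 ± 0.15, adjusted p = 1.13e-05). NPF proteins carry nitrate, peptides or hormones. The ammonium transporter genes MpAMT1.4 (-0.86 ± 0.09, adjusted p = 2.93e-05) and MpAMT2.4 (-0.93 ± 0.12, adjusted p = 0.000160) fell as well. Aquaporins, the water channels, were lower for 4 of 8 tested genes (50%, against 24.8% of all genes), and for 5 with the V level as a covariate. None was higher, also at an unadjusted edgeR p under 0.05 and with DESeq2, though 1 was without BoGa 3 and with limma on TPM. MpPIP2-like (83.9% unique reads) had 1.69, 1.93 and 1.22 CPM in Mpb-gata1-2, against 20.1, 21.0 and 16.3 CPM in BoGa (-3.58 ± 0.17, adjusted p = 1.98e-07). MpPIP1 had 2.21, 2.62 and 2.87 CPM in Mpb-gata1-2, against 12.3, 9.96 and 12.0 CPM in BoGa (-2.14 ± 0.13, adjusted p = 8.58e-07), and MpTIP2 fell by 0.34 ± 0.08 (adjusted p = 0.00455). The summed level of the 8 genes did not fall, at 6046, 6529 and 6521 CPM in Mpb-gata1-2, against 5378, 6279 and 6686 CPM in BoGa.

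Of 11 cytokinin genes 3 were lower (27.3%, near the 24.8% of all genes) and 1 higher (9.09%, against 21.7%), or 3 higher without BoGa 3. The cytokinin oxidase genes MpCKX1 and MpCKX2, which break the hormone down, and MpLOG, which makes its active form, were the lower ones. MpCKX1 had 1.61, 0.603 and 0.890 CPM in Mpb-gata1-2, against 10.3, 8.35 and 3.86 CPM in BoGa (-2.89 ± 0.41, adjusted p = 0.000327), MpCKX2 fell by 0.99 ± 0.13 (adjusted p = 0.000137) and MpLOG, which overlaps another gene, by 0.68 ± 0.09 (adjusted p = 0.000182). The receptor gene MpCHK2 was the higher one, with 19.9, 18.8 and 17.1 CPM in Mpb-gata1-2, against 11.5, 11.1 and 11.4 CPM in BoGa (0.71 ± 0.08, adjusted p = 7.40e-05). Of these 4 calls the one of MpCKX2 was kept with the V level as a covariate, where it was the single call of the list (1 gene was higher at an unadjusted p under 0.05). Auxin genes were higher for 6 (19.4%) and lower for 4 (12.9%) of 31 tested, shares below those of all genes, and 2 and 2 with the covariate. The efflux carrier genes MpPIN3 and MpPIN4 moved apart: MpPIN3 had 5.89, 6.51 and 5.36 CPM in Mpb-gata1-2, against 17.3, 15.5 and 15.8 CPM in BoGa (-1.45 ± 0.10, adjusted p = 2.08e-06). MpPIN4 had 200, 235 and 228 CPM in Mpb-gata1-2, against 142, 135 and 127 CPM in BoGa (0.71 ± 0.07, adjusted p = 3.33e-05). MpSAUR13 rose by 1.79 ± 0.24 (adjusted p = 0.000227) and MpSAUR3 fell by 1.08 ± 0.16 (adjusted p = 0.000510). Of these auxin genes MpSAUR3 was not called with the V level as a covariate (-0.15, adjusted p = 0.783).

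Lipoxygenases oxidise fatty acids, and in vascular plants some of them start jasmonate synthesis. Among 20 jasmonate and lipoxygenase genes 5 were higher (25%, against 21.7% of all genes) and 6 lower (30%, against 24.8%). The lower count was 3 without BoGa 3 or Mpb-gata1-2 replicate 1. With the V level as a covariate 2 were called higher and 4 lower. MpLOX16 had 2.70, 2.99 and 3.08 CPM in Mpb-gata1-2, against 20.4, 20.7 and 35.4 CPM in BoGa (-3.12 ± 0.23, adjusted p = 5.16e-06). MpLOX4 had 23.4, 24.0 and 16.5 CPM in Mpb-gata1-2, against 60.6, 52.9 and 69.7 CPM in BoGa (-1.52 ± 0.16, adjusted p = 5.06e-05). MpLOX5 was higher, with 17.5, 18.2 and 19.1 CPM in Mpb-gata1-2, against 9.08, 9.48 and 8.64 CPM in BoGa (1.01 ± 0.09, adjusted p = 1.29e-05). Of 16 genes of gibberellin-related diterpenes 6 were lower (37.5%, against 24.8% of all genes) and 4 higher (25%, against 21.7%), and 5 and 1 with the covariate. MpKOL3, by its symbol a kaurene oxidase-like gene, had 11.6, 12.2 and 11.5 CPM in Mpb-gata1-2, against 60.2, 54.2 and 35.5 CPM in BoGa (-2.09 ± 0.16, adjusted p = 7.96e-06). Its neighbour MpKOL2 had 17.2, 17.6 and 15.7 CPM in Mpb-gata1-2, against 10.1, 9.52 and 8.70 CPM in BoGa (0.83 ± 0.09, adjusted p = 3.63e-05). MpKAOL2 fell by 2.00 ± 0.18 (adjusted p = 1.22e-05) and MpGID1L7 by 0.85 ± 0.08 (adjusted p = 2.24e-05). The 7 lipoxygenase and diterpene genes named here were all called with the V level as a covariate too.

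Cell cycle and replication genes were lower for 11 of 32 tested (34.4%), with a median of -0.251, for 7 with limma on TPM and for 2 with the V level as a covariate, where none was higher (1 at an unadjusted p under 0.05). The single higher call was lost without any 1 library other than Mpb-gata1-1 replicate 2 or Mpb-gata1-2 replicate 2. MpSMR, for a cyclin-dependent kinase inhibitor, had 18.7, 20.8 and 20.8 CPM in Mpb-gata1-2, against 38.1, 32.1 and 28.9 CPM in BoGa (-0.71 ± 0.10, adjusted p = 0.000309). MpE2F, for a factor that switches on replication genes, had 21.6, 21.0 and 22.0 CPM in Mpb-gata1-2, against 31.0, 30.5 and 25.8 CPM in BoGa (-0.44 ± 0.08, adjusted p = 0.00128). MpCDC5 fell by 0.25 ± 0.05 (adjusted p = 0.00357). MpMCM6, a subunit of the replicative helicase, had 4.01, 4.16 and 3.63 CPM in Mpb-gata1-2, against 5.44, 6.06 and 9.60 CPM in BoGa (-0.84 ± 0.19, adjusted p = 0.00487), and of these its call was the one kept with the V level as a covariate.

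Of 20 tested marker genes of thallus cell types and organs 3 were higher and 2 lower, smaller shares than the 21.7% and 24.8% of all genes. The largest difference among these 5 was in a gemma cup gene. MpGCAM1, a MYB factor needed to form gemma cups, had 27.7, 28.0 and 21.1 CPM in Mpb-gata1-2, against 4.90, 4.68 and 5.88 CPM in BoGa (2.31 ± 0.18, adjusted p = 8.67e-06), and the call was kept with the V level as a covariate. The other gemma genes moved less and not all the same way. MpGRAS2 had 33.4, 36.6 and 39.7 CPM in Mpb-gata1-2, against 22.9, 20.7 and 26.7 CPM in BoGa (0.64 ± 0.10, adjusted p = 0.000556). MpKAR had 46.0, 47.6 and 54.0 CPM in Mpb-gata1-2, against 34.6, 31.4 and 46.1 CPM in BoGa (0.40 ± 0.13, adjusted p = 0.0261, and 0.0779 to 0.0987 without BoGa 1, BoGa 2 or Mpb-gata1-2 replicate 3). MpCLE2, a peptide gene of the apical notch, had 15.8, 16.3 and 15.4 CPM in Mpb-gata1-2, against 19.7, 21.2 and 21.6 CPM in BoGa (-0.40 ± 0.07, adjusted p = 0.000981). Under the V covariate MpGRAS2 (0.36, adjusted p = 0.383) and MpCLE2 (-0.54, adjusted p = 0.0793) were not called and MpKAR changed sign. The rhizoid factor gene MpBHLH14 (also MpRSL1) was not called (0.22 ± 0.09, adjusted p = 0.0618) and passed at 0.0358 to 0.0481 without BoGa 3, Mpb-gata1-1 replicate 1 or 2, or Mpb-gata1-2 replicate 3. The oil body factor gene MpC1HDZ was not called either (0.36 ± 0.24, adjusted p = 0.248) and passed at 0.72 (adjusted p = 0.00358) without BoGa 3. MpSYP12B of oil bodies (2.71 to 3.11 CPM in Mpb-gata1-2, against 2.48 to 3.12 CPM in BoGa), MpNOP1 of air pores (84.9 to 91.5 CPM in Mpb-gata1-2, against 84 to 102 CPM in BoGa) and MpCLV1 of the apical notch (90.7 to 113 CPM in Mpb-gata1-2, against 92.8 to 126 CPM in BoGa) had overlapping groups. In the sexual branch and gamete set, MpRKD had 176, 172 and 175 CPM in Mpb-gata1-2, against 196, 193 and 201 CPM in BoGa (-0.17 ± 0.05, adjusted p = 0.0119), and was not called with the V level as a covariate (-0.23, adjusted p = 0.271) or with limma on TPM. MpR2R3-MYB1 (also MpFGMYB, a factor of female fate) had 14.2, 13.8 and 18.5 CPM in Mpb-gata1-2, against 6.69, 8.45 and 15.3 CPM in BoGa. It was not called (0.61 ± 0.26, adjusted p = 0.0790) and passed at 1.03 (adjusted p = 0.000329) without BoGa 3, the BoGa library with the highest V level. Use of strand in counting was not given, so the reads of MpR2R3-MYB1 may include antisense transcripts of its locus.

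Of 21 NBS-LRR immune receptor genes 5 were higher (23.8%, near the 21.7% of all genes) and 8 lower (38.1%, against 24.8%), and 3 were higher without BoGa 2 or Mpb-gata1-2 replicate 1. Adding the V level as a covariate gave 4 higher and 2 lower. MpNBS-LRR1 had 169, 155 and 165 CPM in Mpb-gata1-2, against 49.8, 48.1 and 46.7 CPM in BoGa (1.76 ± 0.06, adjusted p = 3.09e-08). MpNBS-LRR21 had 7.31, 8.38 and 7.96 CPM in Mpb-gata1-2, against 32.7, 31.6 and 28.3 CPM in BoGa (-1.97 ± 0.08, adjusted p = 6.22e-08). MpNBS-LRR11 fell by 3.14 ± 0.37 (adjusted p = 0.000112) and was not called with the V level as a covariate, and MpNBS-LRR9 rose by 1.20 ± 0.09 (adjusted p = 3.78e-06). The wall-associated kinase gene MpRLK-Pelle_WAK1 fell by 4.73 ± 0.34 (adjusted p = 3.43e-06), but 0% of its reads are unique. Of 13 WRKY factor genes 1 was higher (7.69%, against 21.7% of all genes), or 2 without BoGa 3 and 0 without Mpb-gata1-2 replicate 1. Lower were 2 (15.4%, against 24.8%), MpWRKY14 (-1.0 ± 0.14, adjusted p = 0.000338) and MpWRKY10 (-0.57 ± 0.13, adjusted p = 0.00432). Both were called lower with the V level as a covariate, and no WRKY gene was called higher (1 at an unadjusted p under 0.05). MpAP2L3, which overlaps another gene, had 11.0, 10.1 and 9.38 CPM in Mpb-gata1-2, against 22.6, 23.1 and 20.3 CPM in BoGa (-1.12 ± 0.08, adjusted p = 3.78e-06). The zinc finger gene MpC2H2-21 had 26.3, 24.9 and 29.3 CPM in Mpb-gata1-2, against 11.7, 10.6 and 6.92 CPM in BoGa (1.46 ± 0.18, adjusted p = 0.000149). The histone gene MpH3.3a rose by 0.77 ± 0.06 (adjusted p = 3.43e-06), and the dicer gene MpDCL1a, at 476, 413 and 495 CPM in Mpb-gata1-2 against 276, 290 and 366 CPM in BoGa, by 0.57 ± 0.13 (adjusted p = 0.00460, not called and of opposite sign with the V level as a covariate).

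Genes with the largest loss of CPM mostly had small relative changes. The elongation factor gene MpEF1 had 4013, 4129 and 3984 CPM in Mpb-gata1-2, against 4384, 4599 and 4617 CPM in BoGa (-0.17 ± 0.05, adjusted p = 0.0195, and 0.0545 to 0.0674 without BoGa 2, Mpb-gata1-2 replicate 1 or 3). The aldolase gene MpFBA2 fell by 0.27 ± 0.10 (adjusted p = 0.0383), which did not hold without any 1 of 6 libraries, the 3 of Mpb-gata1-2, BoGa 2, BoGa 3 and Mpb-gata1-1 replicate 3 (adjusted p = 0.0569 to 0.139). MpACTIN7 had 1248, 1266 and 1246 CPM in Mpb-gata1-2, against 1582, 1627 and 1422 CPM in BoGa (-0.30 ± 0.06, adjusted p = 0.00242). The fatty acid desaturase gene MpFAD10 had 732, 714 and 726 CPM in Mpb-gata1-2, against 1050, 1049 and 908 CPM in BoGa (-0.47 ± 0.07, adjusted p = 0.000305), and MpFAD11 had 265, 265 and 265 CPM in Mpb-gata1-2, against 499, 498 and 361 CPM in BoGa (-0.77 ± 0.12, adjusted p = 0.000453). MpGST30 (15.6% unique reads) had 69.9, 71.7 and 67.3 CPM in Mpb-gata1-2, against 302, 280 and 191 CPM in BoGa (-1.89 ± 0.14, adjusted p = 5.56e-06) and was the one of these called with the V level as a covariate.

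Set directly against Mpb-gata1-1, Mpb-gata1-2 was higher for 2152 genes (14.8%) and lower for 2329 (16%), 30.8% together, and by at least 2-fold for 506 (3.48%) and 523 (3.6%). Under the V covariate 159 were higher and 170 lower. The V level differed more between the mutants than between Mpb-gata1-2 and BoGa, and V content and allele cannot be told apart here. Of 138 peroxidase genes 83 were lower in Mpb-gata1-2 than in Mpb-gata1-1 and 16 higher, with a median log2 difference of -0.494 beside 0.0006 over all genes. Polyphenol oxidases were lower for 27 of 45 and higher for 3 (median -0.608), and P450 genes lower for 40 of 107 and higher for 22 (median -0.189). With the V level as a covariate 11 peroxidase genes were called lower and 1 higher, 10 polyphenol oxidase genes lower and none higher (0 at an unadjusted p under 0.05), and 3 P450 genes lower and 4 higher. LEA genes were higher for 27 of 67 and lower for 8 (median 0.507). The higher count was 14 with Mpb-gata1-1 replicate 3 left out and 15 without Mpb-gata1-2 replicate 2, and the lower count was 5 without Mpb-gata1-1 replicate 1 or Mpb-gata1-2 replicate 3. NBS-LRR genes were higher for 12 of 21 and lower for 4 (median 0.416). WRKY genes were higher for 6 of 13 (10 without BoGa 3, median 0.321) and none was lower, also at an unadjusted edgeR p under 0.05 and with DESeq2. With the covariate edgeR called 3 LEA genes higher and 1 lower, 1 NBS-LRR gene (MpNBS-LRR21) lower and none higher, and no WRKY gene. At an unadjusted p under 0.05 this fit had 4 NBS-LRR genes higher and 3 lower, and 2 WRKY genes higher and 3 lower. MpGATA4, at 254, 246 and 255 CPM in Mpb-gata1-1, was slightly higher in Mpb-gata1-2 (0.17 ± 0.05, adjusted p = 0.0182), and so was MpGATA5 (0.31 ± 0.09, adjusted p = 0.0241); the sign of both turned with the V level as a covariate. MpGATA1 was lower in Mpb-gata1-2 (-0.23 ± 0.07, adjusted p = 0.0293) and so was MpFC2 (-0.26 ± 0.07, adjusted p = 0.0115). With the covariate MpGATA1 was not called and MpFC2 changed sign. The GATA calls were lost without 1 library: MpGATA4 without Mpb-gata1-1 replicate 2 or Mpb-gata1-2 replicate 2 or 3, MpGATA5 without Mpb-gata1-1 replicate 1 or 3 or Mpb-gata1-2 replicate 1 or 3, and MpGATA1 without replicate 2 or 3 of either mutant (adjusted p = 0.0502 to 0.109).

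**Figure D5:**
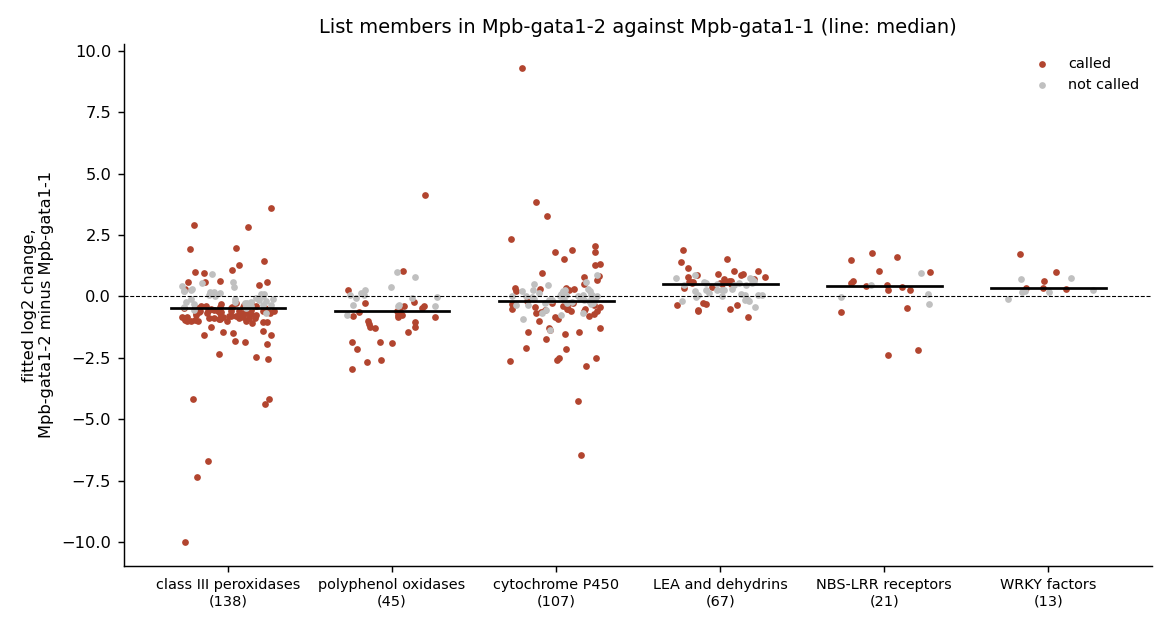
Fitted log2 difference (Mpb-gata1-2 minus Mpb-gata1-1, vertical) of each tested member of 6 gene lists, with called members in red, others in grey, a line at the list median and the number tested in brackets. Peroxidases, polyphenol oxidases and P450 genes have medians of -0.494, -0.608 and -0.189, and LEA, NBS-LRR and WRKY genes of 0.507, 0.416 and 0.321.

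Some peroxidase genes were far lower in Mpb-gata1-2 than in either of the other groups. MpPOD98 had 33.1, 32.0 and 36.0 CPM in Mpb-gata1-1, so Mpb-gata1-2 was lower by 7.35 ± 0.17 on the log2 scale (adjusted p = 1.24e-09). MpPOD90 had 54.8, 57.2 and 64.8 CPM in Mpb-gata1-1 (-4.18 ± 0.08, adjusted p = 5.94e-10). MpPOD92 had 33.7, 34.1 and 38.8 CPM in Mpb-gata1-1, above BoGa, and Mpb-gata1-2 was lower by 4.39 ± 0.13 (adjusted p = 1.03e-08). These calls were kept with the V level as a covariate. MpPOD153 had 394 reads over Mpb-gata1-1 and none in Mpb-gata1-2, at least 125-fold lower, and MpPOD160 had 147 reads over Mpb-gata1-1 and 1 in Mpb-gata1-2, 140-fold lower (95% interval 24.8 to 5570; fitted log2 difference -6.69, and -8.55 without Mpb-gata1-2 replicate 3). MpCupin8 had 425 reads over Mpb-gata1-1, at least 135-fold more than the floor for Mpb-gata1-2. MpPOD81, by contrast, was as low in Mpb-gata1-1 at 0.720, 0.585 and 0.469 CPM, and the mutants did not differ by test (0.15 ± 0.25, adjusted p = 0.682). MpPIP2-like (10.6, 11.1 and 12.9 CPM in Mpb-gata1-1, difference -2.86 ± 0.17, adjusted p = 8.42e-07) and MpPIP1 (6.84, 6.99 and 7.37 CPM, difference -1.45 ± 0.13, adjusted p = 1.56e-05) were intermediate in Mpb-gata1-1, and neither difference was called with the covariate.

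Other genes were lower in Mpb-gata1-1 than in Mpb-gata1-2. MpCYP704-like8 (Mp3g10820, chromosome 3, 10451897 to 10455106) had 70.5, 63.6 and 73.6 CPM in Mpb-gata1-2, against 0.0400, 0.117 and 0.134 CPM in Mpb-gata1-1 and 46.8, 34.1 and 25.8 CPM in BoGa. It was higher in Mpb-gata1-2 than in Mpb-gata1-1 by 9.31 ± 0.34 (adjusted p = 5.57e-08) and than in BoGa by 0.96 ± 0.17 (adjusted p = 0.00138), and both calls were kept with the V level as a covariate. MpLOX4, itself lower in Mpb-gata1-2 than in BoGa, had 1.20, 1.11 and 0.670 CPM in Mpb-gata1-1, below Mpb-gata1-2 (4.47 ± 0.23, adjusted p = 5.30e-07). MpCupin35 (86.6% unique reads) had 12.8, 11.8 and 10.9 CPM in Mpb-gata1-2, against 0.520, 0.497 and 0.469 CPM in Mpb-gata1-1 (4.57 ± 0.24, adjusted p = 3.36e-07) and 8.99, 5.56 and 5.50 CPM in BoGa. MpPPO1 had 3.90, 5.91 and 3.81 CPM in Mpb-gata1-2, against 0.360, 0.263 and 0.179 CPM in Mpb-gata1-1 (4.14 ± 0.68, adjusted p = 0.00130) and 0.896, 3.11 and 0.383 CPM in BoGa. Its rise over BoGa (1.66 ± 0.54, adjusted p = 0.0284) was 2.83 without BoGa 2 and was lost without BoGa 1 (adjusted p = 0.102) or Mpb-gata1-2 replicate 2 (adjusted p = 0.0926). MpR2R3-MYB1 had 0.560, 0.877 and 0.760 CPM in Mpb-gata1-1 (4.37 ± 0.35, adjusted p = 1.04e-05), a call not kept with the V level as a covariate. The strand of its reads is not known here either. MpPR6c and MpBELL1 had 1 read each over Mpb-gata1-1 and 194 and 175 in Mpb-gata1-2, 203-fold (95% interval 36.1 to 8080) and 183-fold (32.5 to 7290) higher. Their fitted log2 differences of 7.18 and 7.04 were 9.07 and 8.93 with Mpb-gata1-1 replicate 1 left out, and 6.54 and 6.40 with replicate 3 left out. MpPR6c was lower than in BoGa (-1.94 ± 0.41, adjusted p = 0.00371, and -1.27 without BoGa 2), and MpBELL1, a homeobox gene of the sporophyte programme, did not differ from BoGa by test (0.10 ± 0.32, adjusted p = 0.810). The differences of MpPPO1 and MpPR6c from Mpb-gata1-1, and those from BoGa, were not called with the V level as a covariate.

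Some genes that differed by at least 2-fold lay side by side. There were 50 runs of at least 3 consecutive tested genes called in the same direction, 22 higher with 101 genes and 28 lower with 100 genes. The longest, from 20857534 to 20901518 on chromosome 4, held 10 genes without a symbol that were all higher (median log2 change 4.64), and the value beside it in Mpb-gata1-1 minus BoGa was 3.94. Within it Mp4g18550 had 22.6, 22.6 and 16.4 CPM in Mpb-gata1-2, against 0.866, 0.660 and 0.738 CPM in BoGa (4.76 ± 0.28, adjusted p = 1.19e-06). A run of 7 on the same chromosome, from 24862195 to 24894086, had a median of 4.14, beside 0.755 in Mpb-gata1-1 minus BoGa, and holds the ERF factor genes MpERF16 and MpERF17. MpERF17 had 14.4, 12.9 and 12.6 CPM in Mpb-gata1-2, against 3.48, 0.205 and 0.179 CPM in Mpb-gata1-1 and 0.239, 0.345 and 1.31 CPM in BoGa. Its log2 change over BoGa was 4.35 ± 0.88 (adjusted p = 0.00338), and 5.49 without BoGa 3. Its log2 difference from Mpb-gata1-1 was 3.59, and 6.09 without Mpb-gata1-1 replicate 1 or 2.96 when replicate 3 of that mutant was left out instead. MpERF16 had 185 reads in Mpb-gata1-2 and 2 in BoGa, 95-fold higher (95% interval 25.9 to 790). Neither call was kept with the V level as a covariate. A run of 5 lower genes on chromosome 5, from 3657658 to 3801632, holds MpPOD65, MpPOD66 and MpPOD67 (median -1.55). By chromosome, genes at least 2-fold different made up 5.24% of tested genes on chromosome 1, 11.7% on chromosome 2 and 7 to 10.3% on chromosomes 3 to 8.

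In all, 18 genes had no read in 1 group and at least 50 reads in each library of the other. The 5 that were at 0 in BoGa had no symbol, and all 5 are given, the last 3 by choice after their values were seen. Mp4g00760 had 12.7, 12.7 and 11.8 CPM in Mpb-gata1-2, or 1222 reads, at least 418.5-fold above the floor of 3 reads over BoGa. Mp4g00740 next to it had 1206 reads (at least 413-fold) and Mp4g00750 between them 241 reads (at least 82.53-fold). These neighbours also had 1110, 968 and 234 reads over Mpb-gata1-1. Mp2g13710 (708 reads, at least 242.4-fold) and Mp1g02480 (257 reads, at least 88.01-fold) had none in Mpb-gata1-1 either. Of the 13 genes at 0 in Mpb-gata1-2, Mp3g03090 had 18.9, 18.5 and 18.8 CPM in Mpb-gata1-1 and 17.1, 19.5 and 17.2 CPM in BoGa, and was at least 591.5-fold lower in Mpb-gata1-2 than in BoGa. Mp5g17230 had 13.9, 20.1 and 19.9 CPM in BoGa (at least 594.4-fold lower) and ends a run of 6 lower genes on chromosome 5, from 18236723 to 18281721. Mp2g23310 had 17.5, 17.1 and 16.2 CPM in BoGa (66.6% unique reads, at least 558.1-fold lower). Mp1g19010 had 50.3, 54.3 and 60.0 CPM in BoGa, but none of its reads is unique (at least 1819-fold lower). Floors cover counting error only.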

How the data were processed

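RNA sequencing of whole Marchantia polymorpha thalli gave 9 libraries, 3 per group, and all were used. Per the labels' protocols the library kit was a stranded one for mRNA. Aligner, genome build, annotation and any use of strand in counting were not given in the sources used here. The authors deposited, per the file headers, raw read counts per gene (total and unique), and TPM and RPKM values, which the authors divided by the length of the whole gene region, introns included. Total counts were tested with edgeR 4.0.16 in R 4.3.3 (quasi-likelihood, robust, TMM scaling, filterByExpr by group). All 9 libraries shared the estimate of spread, and Benjamini-Hochberg adjustment ran over all 14667 tested genes. Chromosomes 1 to 8 were then reported. The fit was also run on counts simulated with the same spread for all genes and no difference in V content. Such counts differ from these data in both, so that run does not bear on the calls given here. P-values measure the spread between pools of 3 plants.

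Alternatives were other scalings, DESeq2 1.42.0, limma 3.58.1 on log2(TPM + 1) and log2(RPKM + 1), other filters, unique counts, a replicate block, a V-level covariate and the removal of each library in turn. V level means the median, over 22 V-chromosome genes, of CPM relative to the mean of Mpb-gata1-2. CPM is not divided by gene length, so levels are compared between libraries and not between genes. Symbols came from the RefSeq gene table (assembly MpTak2_v7.1) by locus number, which matched 17641 of 20574 genes (85.7%), and positions came from the deposited tables. Named genes were called, had groups that did not overlap and averaged at least 1 in log2 CPM: the largest rises and falls, the largest differences in CPM, the largest differences from Mpb-gata1-1, and up to 4 called members of each list by p. All GATA, tetrapyrrole, light and marker genes, runs of neighbours and genes at 0 in 1 group could be named too, and the text uses part of them. The members and lists were chosen with earlier results of these data known. Floors (3 reads over a group) and 95% exact intervals cover counting error only. A gene with under 90% unique reads is named with that share, since its reads may belong to copies. No promoter sequences were used here.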

Additional observations from a re-analysis of the deposited data

Results flagged for a closer look

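Among the genes named here, 21 were called in opposite directions in the mutants, each against BoGa. A difference between the mutants called by edgeR's quasi-likelihood test was a condition for this list, so that call is no further result. The log2 value of the difference (Mpb-gata1-2 minus Mpb-gata1-1) is given. The contrasts share the BoGa libraries, whose V level also lies between those of the mutants, and the part of V content was not tested. Of the 21 differences 13 were still called with the V level as a covariate, and these are given first.

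Lower in Mpb-gata1-2 and higher in Mpb-gata1-1 than in BoGa were the peroxidase genes MpPOD92 (-4.39) and MpPOD153 (-10.00, a fitted value for a gene with no read in Mpb-gata1-2 and so no measure of size). The polyphenol oxidase genes MpPPO14 (-1.86) and MpPPO47 (-2.61) showed the same pattern, as did MpGH18.2 (-1.84), MpCYP813-like2 (-2.11) and MpNBS-LRR21 (-2.19). Higher in Mpb-gata1-2 and lower in Mpb-gata1-1 were MpPOD162 (3.61), MpCupin35 (4.57), MpCYP704-like8 (9.31), the dioxygenase gene MpDOXC8 (2.62), the zinc finger gene MpC2H2-21 (3.16) and the auxin carrier gene MpPIN4 (0.92). MpDOXC8 had 21.6, 30.1 and 22.3 CPM in Mpb-gata1-2, against 3.60, 4.38 and 4.00 CPM in Mpb-gata1-1 and 7.98, 8.10 and 7.96 CPM in BoGa. MpPOD162 had 18.3, 13.7 and 17.5 CPM in Mpb-gata1-2, against 1.56, 0.964 and 1.52 CPM in Mpb-gata1-1 and 10.7, 8.35 and 6.73 CPM in BoGa. In both genes the 3 groups did not overlap.

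The other 8 differences were not called with the covariate. Lower in Mpb-gata1-2 were MpCupin71 (-2.65), the aquaporin gene MpTIP2 (-0.62) and the ammonium transporter gene MpAMT2.4 (-1.25). MpCupin71 had 3.56, 3.38 and 2.82 CPM in Mpb-gata1-2, against 22.6, 19.1 and 19.5 CPM in Mpb-gata1-1 and 6.27, 10.3 and 7.55 CPM in BoGa. Higher in Mpb-gata1-2 were MpPPO1 (4.14), MpKOL2 (1.08), MpCYP704-like5 (2.35), MpNBS-LRR9 (1.59) and MpPOD156 (1.06).

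The V-chromosome genes, left out of the comparison, gave a level in the lowest Mpb-gata1-2 library (0.9462, relative to the Mpb-gata1-2 mean) that was above that of the highest BoGa library (0.6816).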

How the results depend on the processing

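Counts of called genes against BoGa stayed within 1.5 times under every alternative except the V-level covariate, which gave 625 higher and 878 lower. Leaving out 1 library gave 2576 to 3285 higher and 2929 to 3808 lower, and 487 to 562 and 717 to 814 at least 2-fold. Genes at least 2-fold higher numbered 313 with the covariate, and 305 higher and 392 lower passed a stricter filter on low counts, which tests fewer genes. With limma they numbered 351 lower on TPM, and 256 higher and 221 lower on RPKM, scales on which the added 1 shrinks the change of low genes. Against Mpb-gata1-1 leaving out 1 library gave 1501 to 2546 higher and 1660 to 2955 lower, and 451 to 552 and 494 to 553 at least 2-fold. There the covariate left 159 higher and 170 lower, all of them at least 2-fold, and an adjusted p under 0.01 left 1190 and 1376. At least 2-fold higher and lower were 276 and 293 with the stricter filter, 291 and 291 with limma on TPM and 166 and 178 on RPKM.

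Of 4037 values of named genes against BoGa under the alternatives, 3833 kept their side of the threshold, 172 lost the call and 20 gained one. The 3833 include values called in neither fit whose sign turned, such as MpHY2 with the V covariate (-0.2144 to 0.2242). Among values called in the main or the alternative fit, the sign of 12 turned, all with the V level as a covariate. On the log2 scale they turned to 0.1765 (MpFC2), -0.05297 (MpPOD156), 0.3917 (MpDET1), 0.05286 (MpEID1), 0.3764 (MpBBX2), 0.3205 (MpPHOT), 0.1865 (MpUVR8), 0.4225 (MpCOP1), 0.3869 (MpABA1), -0.06434 (MpDCL1a), 0.2293 (MpPAL6) and -0.169 (MpKAR). Against Mpb-gata1-1 the covariate turned 6, to -0.002754 (MpGATA4), -0.6302 (MpGATA5), 0.4782 (MpFC2), -0.489 (MpPOD156), -3.267 (MpERF17) and -0.2951 (MpWRKY14). The covariate follows the groups closely, and the cause of these turns was not tested. Of 163 named genes called against BoGa 94 kept the call with it.

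The share of called genes that were higher was 46.7%, against 40.4% with upper-quartile scaling and 62.2% with limma on TPM, and no setting moved the median change of all genes by more than 0.1. Same-numbered libraries of Mpb-gata1-2 and BoGa had deviations with r of 0.161, -0.00461 and 0.0372. These values show no clear pairing by number, though so few pairs cannot exclude one. The fit with the replicate block gave 2928 higher and 3379 lower genes. Whole-plant libraries, 1 line per mutant as far as the labels say and V content that differs between groups limit what the comparison can separate.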
